A study of Mus musculus with 4 samples.

Results

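This account describes 10 genes that set or mark the choice between the CD4 helper and CD8 cytotoxic T-cell lineages, in splenic CD4+ T cells of WT and *Satb1* conditional knockout mice. The genes were *Cd4*, *Cd8a*, *Cd8b1*, *Zbtb7b*, *Runx3*, *Runx1*, *Gata3*, *Tox*, *Rag1* and *Rag2*, matched by symbol among the 55367 gene symbols of the count tables. All 10 were found, and 9 of the 10 had enough reads to be tested, *Rag2* being the exception. RNA-seq was performed on 2 libraries labelled WT and 2 libraries labelled *Satb1* conditional knockout (cKO), all from sorted CD4+ T cells of the spleen of C57BL/6 mice. In the cKO, floxed *Satb1* was deleted by *Thpok-cre*, that is, Cre recombinase driven by the regulatory sequences of *Zbtb7b*, which is itself 1 of the 10 genes. Deletion therefore begins in thymocytes that have entered the CD4 lineage. The study's mice were young adults of both sexes, and the labels give neither age nor sex for a library. They do not say whether the WT mice carried Cre or floxed alleles.

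A thymocyte that has rearranged its T-cell receptor genes with the RAG1 and RAG2 recombinase first carries both the CD4 and the CD8 co-receptor and then keeps one of them. ThPOK, the zinc finger protein encoded by *Zbtb7b*, commits cells to the CD4 lineage, with TOX and GATA3 acting upstream of it, whereas RUNX3 promotes the CD8 lineage and RUNX1 acts at the *Cd4* silencer in earlier thymocytes. CD8 is built from the chains encoded by *Cd8a* and *Cd8b1*, as an alpha-beta heterodimer on conventional CD8+ T cells. SATB1 is a genome organizer that is abundant in thymocytes, and the study cites work in which its early loss disrupts the choice between these lineages. The genes were examined here on that ground, with earlier results of these data known.

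The total gene count per library ranged from 4495902 to 6555699, and 19068 to 19979 genes had at least 1 count. The libraries labelled cKO showed no detectable fall of *Satb1* RNA at the gene level, so directions are those of the labels. *Satb1* was at 926 ± 81.5 CPM (SD, n = 2) in WT and 896 ± 68.9 CPM (SD, n = 2) in cKO, with an edgeR adjusted p = 0.877. CPM are counts per 1e+06 scaled counts of the tested genes. *Foxp3*, the Treg factor gene that the study compared between these genotypes, was at 131.1 ± 14.9 CPM (SD, n = 2) in WT and rose to 476.1 ± 100.1 CPM (SD, n = 2), with an edgeR adjusted p = 0.000447. *Xist* had 5447 and 4235 counts in WT and 9 and 6 in cKO, and the Y-linked *Ddx3y* had 0 in both WT libraries and 525 and 597 in cKO. Sex and genotype therefore cannot be told apart for any gene, autosomal genes included. The summed level of 10 T-cell marker genes lay between 6070 and 6187 CPM in WT and between 6176 and 6959 CPM in cKO, and *Cd4* was at 1183 CPM or more in every library. Of B-cell markers, 9 genes without *Ighm* summed to 18.4 and 19.0 CPM in WT, 72.0 CPM in cKO 1 and 30.6 CPM in cKO 2. Of the 6 B-cell genes tested, with a median log2 fold change of 1.23, *Pax5* rose, at 0.765 and 0.896 CPM in WT and 10.1 and 3.19 CPM in cKO (edgeR adjusted p = 0.0407, called in 10 of the 12 alternatives). Without cKO 1 the median of the 6 B-cell genes was 0.54, with 4 above 0 and 2 below. The 13 myeloid and dendritic markers summed to 78.6 and 96.8 CPM in WT, 169.8 CPM in cKO 1 and 104.8 CPM in cKO 2. Of the 9 myeloid genes tested, *Lyz2*, *Cybb* and *S100a9* rose, while *Itgax* was at -1.57 and *Itgam* at -0.85 on the log2 scale without passing the test. Without cKO 1, 3 were called higher and *Itgax* was called lower, at -2.56 with an edgeR adjusted p = 0.0497. *Lyz2* was at 2.14 and 2.69 CPM in WT and 22.7 and 8.93 CPM in cKO, and *S100a9* at 0 and 0.224 CPM in WT and 9.72 and 5.10 CPM in cKO, each called in all 12 alternatives. *Pax5* and *S100a9* passed the low-count filter only through their cKO libraries. The part of B cells and myeloid cells in the results below was not tested. Results without cKO 1, the library in which these markers summed highest, are also given for several genes and lists.

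Of the 9 lineage genes tested, 1 rose (*Zbtb7b*), 1 fell (*Cd8b1*) and 7 stayed above an edgeR adjusted p of 0.05. Across all 12403 tested genes, 4.3% were called, 2.35% higher and 1.95% lower in cKO. *Gata3* and *Tox* were also higher in both cKO libraries than in both WT libraries, but without passing the test. *Cd4*, *Cd8a*, *Runx3*, *Runx1* and *Rag1* overlapped between genotypes. Libraries of the genotypes did not overlap for 4 of the 9 genes, against 50.3% of all tested genes. In bulk RNA, a change in the share of cells that carry a transcript and a change in its amount per cell cannot be told apart. The same 2 genes were called by DESeq2 (3.01% of all its genes), with RLE factors (4.38%), with total counts (4.39%), with a filter of 1 CPM in 2 libraries (4.03%), with the current edgeR dispersion (4.46%) and without WT 1 (4.02%). *Gata3* was called in addition after thinning to the smallest total (4.47%) and without cKO 1 (10.6%). *Gata3* and *Tox* were both added without the filter on low counts (5.72%), with a replicate block (9.39%) and without cKO 2 (12.8%). Without WT 2, where 1.4% of all genes were called, edgeR called 0 of the 9, with 2 at an unadjusted p under 0.05.

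**Figure D1:**
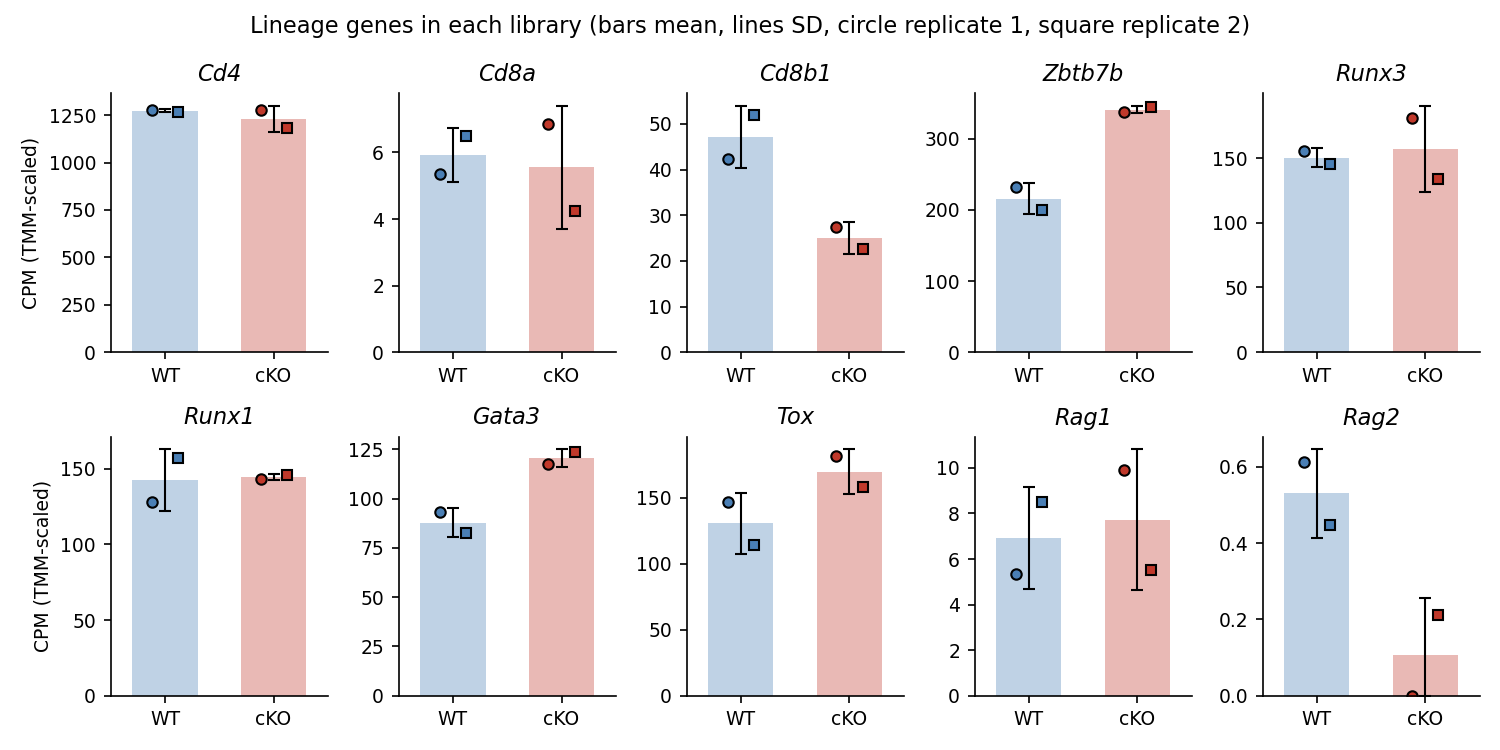
TMM-scaled CPM of each of the 10 lineage genes, with WT in blue and cKO in red, bars for the mean, lines for the SD (cut at 0) and points for the 2 libraries of each genotype. *Zbtb7b* lies between 200 and 232 CPM in WT and between 337 and 345 CPM in cKO, while *Cd8b1* lies between 42.4 and 52.0 CPM in WT and between 22.5 and 27.4 CPM in cKO.

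Promoter sequence was available from RefSeq (GRCm38.p6) for 7 of the 10 genes, with 10 starts in all, and not for *Cd4*, *Cd8b1* and *Tox*. The 250 bases before both annotated starts of *Zbtb7b* are shown because this gene rose, and those of *Cd8a* because it encodes the partner of the *Cd8b1* product. They run 5′ to 3′ on the strand of the gene, and capitals mark the RUNX core motif TGTGGT on either strand, since RUNX factors act at the loci of both genes.
Zbtb7b upstream start, chr3:89393379-89393628, minus strand: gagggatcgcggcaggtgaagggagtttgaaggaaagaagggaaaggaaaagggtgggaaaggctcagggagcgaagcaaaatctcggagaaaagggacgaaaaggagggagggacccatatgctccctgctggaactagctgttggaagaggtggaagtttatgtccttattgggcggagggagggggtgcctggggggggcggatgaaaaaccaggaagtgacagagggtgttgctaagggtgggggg
Zbtb7b downstream start, chr3:89387672-89387921, minus strand: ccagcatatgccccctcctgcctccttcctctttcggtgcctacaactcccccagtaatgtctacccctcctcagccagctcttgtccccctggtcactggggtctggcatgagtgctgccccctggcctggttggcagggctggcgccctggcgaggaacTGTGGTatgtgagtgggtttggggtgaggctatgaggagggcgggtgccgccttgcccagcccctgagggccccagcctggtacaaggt
Cd8a, chr6:71373177-71373426, plus strand: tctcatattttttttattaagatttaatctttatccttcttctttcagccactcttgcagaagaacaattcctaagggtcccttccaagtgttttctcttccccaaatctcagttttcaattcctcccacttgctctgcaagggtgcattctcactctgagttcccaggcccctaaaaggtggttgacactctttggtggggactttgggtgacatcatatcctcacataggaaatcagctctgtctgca
The downstream *Zbtb7b* start had 1 match, beginning 89 bases before the start, and the upstream start and *Cd8a* had none. Among the other starts, the upstream start of *Runx3* had 2 matches, at 134 and 126 bases, and *Rag1* had 2, at 81 and 67 bases. The motif occurs in 14.0% of 32851 promoter windows of this length. The GATA motif AGATAA, found in 9.99% of windows, occurred in none of the 10. The E-box CAGCTG, found in 13.0%, occurred only in *Rag1*, at 128 bases. No overlap between these matches was seen. The windows of *Zbtb7b* were 43.6% and 35.2% A or T and that of *Cd8a* 57.2%, beside a median of 47.6% over all windows. A match is a run of letters and does not show binding, and the counts here do not separate reads by start.

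*Zbtb7b* occupies positions 89377644 to 89394776 of chromosome 3 (GRCm38, minus strand). Its reads numbered 1516 and 894 in WT against 1771 and 1623 in cKO, which is 231.9, 200.3, 337.5 and 345.0 CPM. Both cKO libraries were above both WT libraries, and the cKO libraries differed from each other by less than the WT libraries did. Mean expression was 216.1 ± 22.3 CPM (SD, n = 2) in WT and rose to 341.2 ± 5.31 CPM (SD, n = 2), a fold of 1.58 with a 95% interval from 1.33 to 1.86. On the log2 scale the difference was 0.66 (SE 0.11, edgeR adjusted p = 0.0117). Without cKO 1 it was 0.67, with adjusted p = 0.000662. Without WT 2 it was 0.56 and no longer passed, at adjusted p = 0.223. Over all 12 alternatives the adjusted p ran from 9.56e-07 to 0.223. The antisense transcript *Gm15417* shares 116 bases, or 2.07%, of the *Zbtb7b* exons, and the labels do not give the strand setting of the counting. The *Thpok-cre* construct uses regulatory sequences of *Zbtb7b*, and whether it adds to or alters these reads was not tested.

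*Cd8b1*, on chromosome 6 at 71322788 to 71337494 (plus strand), moved in the other direction. Its reads numbered 277 and 232 in WT against 144 and 106 in cKO, or 42.4, 52.0, 27.4 and 22.5 CPM. The lowest WT library was above the highest cKO library. Mean expression was 47.2 ± 6.80 CPM (SD, n = 2) in WT and fell to 24.99 ± 3.47 CPM (SD, n = 2), so that WT was 1.87-fold above cKO, with a 95% interval from 1.44 to 2.43. On the log2 scale the difference was -0.91 (SE 0.17, edgeR adjusted p = 0.0201). It was -1.05 with adjusted p = 0.00281 without cKO 1, and -0.76 with adjusted p = 0.163 without WT 2. Over the 12 alternatives the adjusted p lay between 6.07e-06 and 0.163. Of the windows of 50 bases in its transcripts, 93.7% were found in no other gene's transcripts, the lowest share among the 10 genes.

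*Cd8a* lies 35.9 kb from *Cd8b1* on the same strand, from 71373427 to 71379173, and encodes the chain that pairs with CD8 beta. Over WT 1, WT 2, cKO 1 and cKO 2 it had only 35, 29, 36 and 20 counts, or 5.35, 6.50, 6.86 and 4.25 CPM. The cKO libraries held both the highest and the lowest value. No difference was detected, at a log2 difference of -0.07 (SE 0.34) and an edgeR adjusted p = 0.941. The interval of the fold, 0.56 to 1.62, includes changes of more than 1.5-fold in either direction and overlaps that of *Cd8b1*, 0.41 to 0.69. Without cKO 1 the log2 difference of *Cd8a* was -0.46. Exact Poisson intervals of single libraries ran from 2.60 to 6.57 CPM in cKO 2 and from 4.80 to 9.50 CPM in cKO 1.

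*Cd4*, on chromosome 6 from 124864692 to 124888221, was the most abundant of the 10 genes. It had 8356, 5656, 6712 and 5564 counts, or 1278, 1267, 1279 and 1183 CPM, in WT 1, WT 2, cKO 1 and cKO 2. The mean was 1273 ± 7.65 CPM (SD, n = 2) in WT and 1231 ± 68.1 CPM (SD, n = 2) in cKO. The fold was 0.97 with a 95% interval from 0.81 to 1.16 and an edgeR adjusted p = 0.869, so that a change of the size seen for *Zbtb7b* lies outside the interval. The cells had been sorted on CD4 protein, the product of this transcript.

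**Figure D2:**
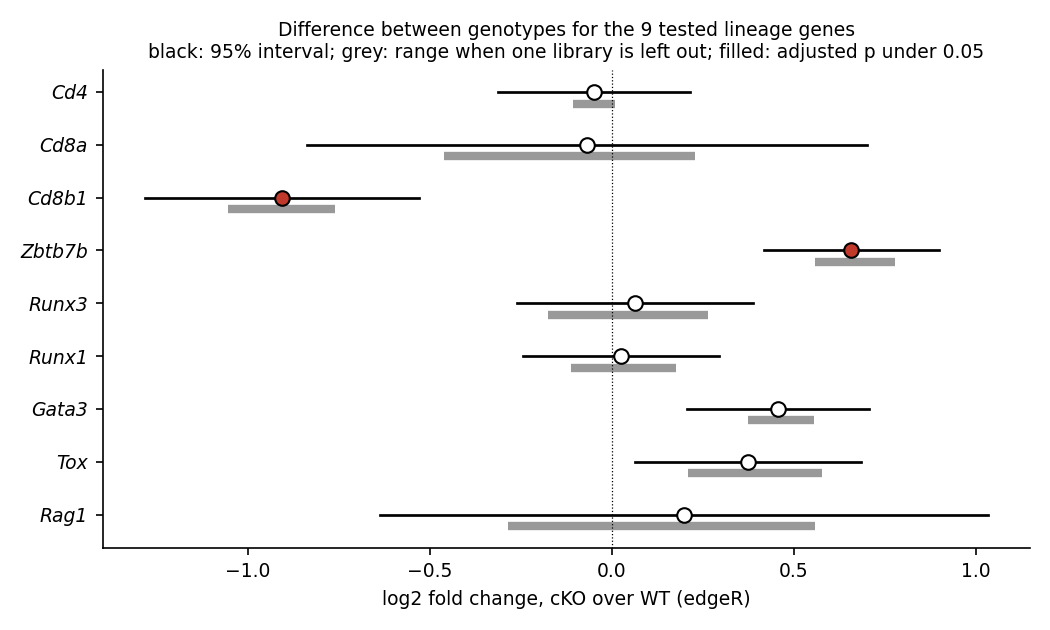
Log2 fold change of cKO over WT for the 9 tested lineage genes on the horizontal axis, with the 95% interval in black, the range over the fits that leave out 1 library in grey, and a filled point where the adjusted p was under 0.05. *Cd8b1* at -0.91 and *Zbtb7b* at 0.66 are filled, and the grey ranges of *Cd4*, *Cd8a*, *Runx3*, *Runx1* and *Rag1* cross 0.

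*Runx3*, on chromosome 4 from 135120652 to 135177990, encodes the transcription factor that opposes ThPOK in the CD8 lineage. It had 1017, 648, 948 and 628 counts, or 155.6, 145.2, 180.6 and 133.5 CPM, with the cKO libraries on either side of WT. Genotypes differed by 0.06 on the log2 scale (SE 0.14, edgeR adjusted p = 0.858). Without cKO 1 the sign turned, to -0.17.

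*Runx1*, on chromosome 16 from 92601466 to 92826149, had 836, 700, 750 and 687 counts, or 127.9, 156.8, 142.9 and 146.0 CPM. Both cKO libraries lay between the WT libraries. The log2 difference was 0.02 (SE 0.12, edgeR adjusted p = 0.939), and without WT 1 it was -0.11. For *Runx3* and *Runx1* the upper bounds of the fold were 1.31 and 1.23.

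*Gata3*, the GATA factor that acts upstream of ThPOK and directs T helper type 2 cells, lies on chromosome 2 from 9857078 to 9890034. It had 608, 368, 616 and 582 counts, or 93.0, 82.5, 117.4 and 123.7 CPM. The genotypes did not overlap. The mean was 87.7 ± 7.46 CPM (SD, n = 2) in WT and 120.5 ± 4.48 CPM (SD, n = 2) in cKO. A log2 difference of 0.45 (SE 0.11) did not pass the edgeR test, at adjusted p = 0.0564. It passed in 5 of the 12 alternatives, with adjusted p from 0.0123 under the replicate block to 0.482 without WT 2. Without cKO 1 the adjusted p was 0.0162, and without cKO 2 it was 0.0174. *Gata3* shares 155 exonic bases with the antisense transcript *Gm13256* and 77 with *9230102O04Rik* on its own strand.

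*Tox* encodes an HMG-box protein required for CD4 T-cell development and lies on chromosome 4 from 6686353 to 6991557. It had 960, 510, 953 and 742 counts, or 146.8, 114.3, 181.6 and 157.7 CPM. Both cKO libraries were above both WT libraries, but the gap between WT 1 and cKO 2 was smaller than the spread within either genotype. The log2 difference was 0.37 (SE 0.14, edgeR adjusted p = 0.182), and 0.26 in the fit without cKO 1. It passed in 3 of the 12 alternatives, one of them the fit without cKO 2 (adjusted p = 0.00923), and the adjusted p ran up to 0.808 without WT 2.

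*Rag1* and *Rag2*, the recombinase genes of immature lymphocytes, lie 5.75 kb apart on chromosome 2. *Rag1* (101638282 to 101649501) had 35, 38, 52 and 26 counts, or 5.35, 8.51, 9.91 and 5.53 CPM. The WT and cKO libraries interleaved. No difference was detected, at 0.20 on the log2 scale (SE 0.37, edgeR adjusted p = 0.827). Without cKO 1 the sign of *Rag1* turned, to -0.28. *Rag2* (101624718 to 101632529) had 4 and 2 counts in WT and 0 and 1 in cKO, or 0.612, 0.448, 0 and 0.213 CPM. It fell under the low-count filter, and a difference was not detectable at this depth. Exact Poisson intervals reached 1.57 and 1.62 CPM in the WT libraries and 0.703 and 1.18 CPM in cKO 1 and cKO 2, and they overlapped. These intervals cover counting error only.

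To order the genes by level, CPM was divided by the length of each gene's exons. In WT the order was *Cd4* at 315.6 ± 1.90 CPM per kb (SD, n = 2), *Zbtb7b* at 38.7 ± 3.99, *Cd8b1* at 31.8 ± 4.58, *Runx3* at 30.1 ± 1.47, *Gata3* at 22.1 ± 1.87, *Tox* at 17.2 ± 3.03, *Runx1* at 11.8 ± 1.70, *Cd8a* at 1.63 ± 0.22, *Rag1* at 1.05 ± 0.34 and *Rag2* at 0.155 ± 0.034. The ranges of *Cd8b1* and *Runx3* overlapped, and no other neighbours in that order did. In cKO the order of 7 genes was *Cd4*, *Zbtb7b*, *Runx3*, *Gata3*, *Tox*, *Cd8b1* and *Runx1*, with *Zbtb7b* at 61.0 ± 0.95 CPM per kb (SD, n = 2) and *Cd8b1* at 16.8 ± 2.34. *Cd8b1* thus went from rank 3 in WT to rank 6 in cKO. The overlapping neighbours in cKO were *Runx3* with *Gata3* and *Cd8a* with *Rag1*. With the longest transcript as the length, *Cd8b1* was at rank 5 in WT and rank 7 in cKO. RNA of both CD8 chains was detected at unlike levels in these bulk libraries. *Cd8b1* was at 15.2 to 35.1 CPM per kb and *Cd8a* at 1.17 to 1.89 CPM per kb over the 4 libraries.

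**Figure D3:**
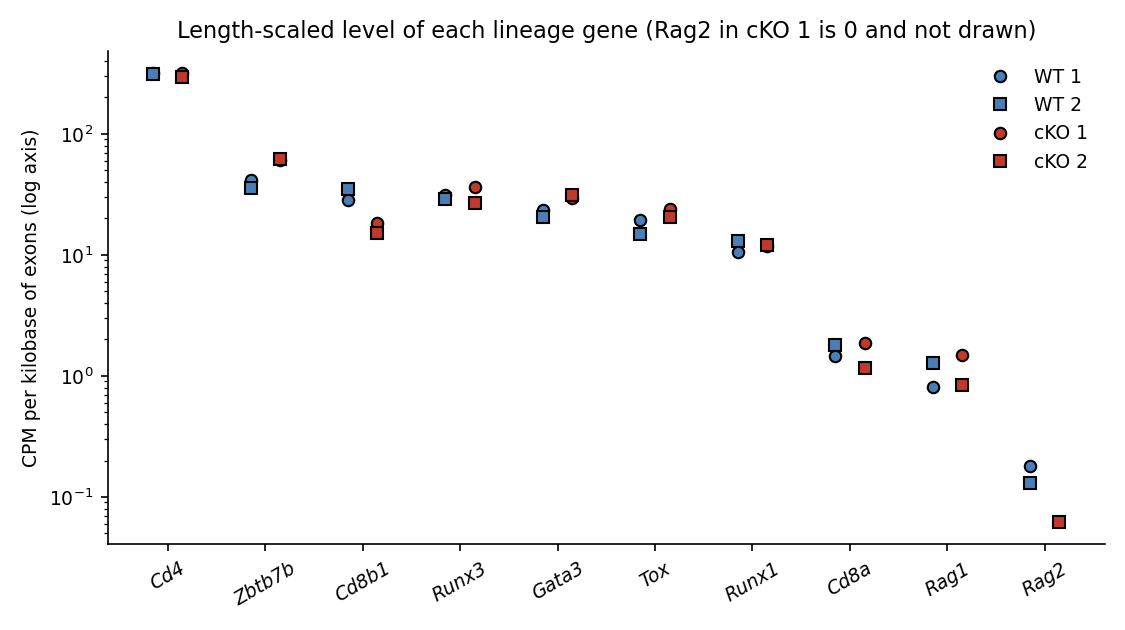
CPM per kilobase of exons on a log axis for each lineage gene in the 4 libraries, with WT in blue, cKO in red, circles for replicate 1 and squares for replicate 2. *Cd4* lies highest, at 293.3 to 317.2 CPM per kb, 6 genes lie between 10.6 and 61.7, and *Cd8a*, *Rag1* and *Rag2* lie at 1.89 or less, with the 0 of *Rag2* in cKO 1 not drawn.

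Ratios of counts within a library do not depend on depth or scaling. *Cd8b1* over *Cd8a* was 7.91 in WT 1 and 8 in WT 2, and it was 4 in cKO 1 and 5.30 in cKO 2. The counting intervals were wide, 5.57 to 11.2 in WT 1 and 3.29 to 8.55 in cKO 2, because *Cd8a* had few reads. *Cd4* over *Cd8b1* was 30.2 and 24.4 in WT and 46.6 and 52.5 in cKO, a mean ratio 1.82-fold higher in cKO. *Cd4* over *Cd8a* overlapped between genotypes, at 239 and 195 in WT and 186 and 278 in cKO.

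*Zbtb7b* over *Runx3*, the ratio of the factors that oppose each other in lineage choice, was 1.49 and 1.38 in WT and 1.87 and 2.58 in cKO. The cKO libraries were both higher, by 1.53-fold on average, and they differed from each other by more than the WT libraries did, following *Runx3*. *Runx1* over *Runx3* was 0.822 and 1.08 in WT and 0.791 and 1.09 in cKO, with the same-numbered libraries alike and the genotypes overlapping. For the ratios that did not overlap, *Cd8b1* over *Cd8a*, *Cd4* over *Cd8b1* and *Zbtb7b* over *Runx3*, the exact permutation test gave p = 0.333 (two-sided), the smallest value that 2 libraries against 2 allow, and the 5 ratios share genes.

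**Figure D4:**
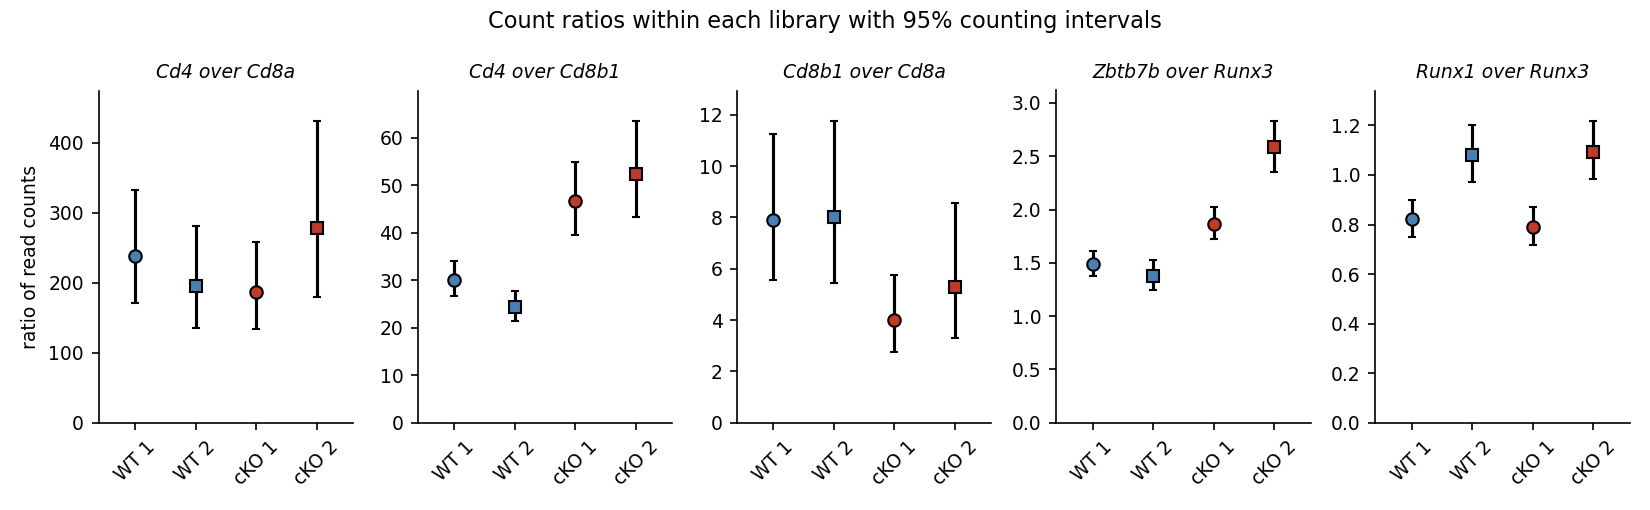
Ratio of read counts of pairs of lineage genes in each library, on axes that start at 0, with 95% counting intervals, WT in blue and cKO in red. *Cd4* over *Cd8b1* is 24.4 and 30.2 in WT and 46.6 and 52.5 in cKO, and *Zbtb7b* over *Runx3* is at most 1.49 in WT and at least 1.87 in cKO, while *Cd4* over *Cd8a* overlaps.

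Genes that characterise the CD8 cytotoxic lineage were examined next, as a list of 14 effector and regulator genes. Which cells carry these transcripts was not tested. The lists here and below were chosen with earlier results of these data known. Their counts describe these data and are no independent support. Of the 13 tested, 12 fell, 0 rose and 1 was not called, beside 1.95% of all genes lower. Their median log2 fold change was -1.61, and that of all tested genes was -0.0015. The summed level of the 14 genes was 426 and 377 CPM in WT and 126 and 148 CPM in cKO. *Gzma* and *Gzmb* had the lowest log2 fold changes of the tested genes in this list. *Gzma*, *Klrd1* and *Klrk1* passed the low-count filter only through their WT libraries. *Xcl1* was not tested, at 0.918 and 0.672 CPM in WT and 0.381 and 1.06 CPM in cKO. *Gzmb*, a protease of cytotoxic granules, was at 62.6 and 54.2 CPM in WT and at 3.05 and 5.95 CPM in cKO, with a log2 fold change of -3.72 and an edgeR adjusted p = 0.000127. *Gzma* fell from 16.5 and 20.2 CPM to 1.33 and 0.425 CPM, a log2 fold change of -4.30.

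The lineage regulators *Eomes* and *Tbx21*, the T-box factors of cytotoxic and T helper type 1 cells, fell by 1.38 and 1.05 on the log2 scale, with edgeR adjusted p = 0.0113 and 0.0494. *Eomes* was called in all 12 alternatives and *Tbx21* in 7, its call being lost in DESeq2 (adjusted p = 0.0987), with total counts (0.0534) and without WT 1 (0.166), WT 2 (0.0942) or cKO 1 (0.0503). *Prf1*, which encodes perforin, fell with a log2 fold change of -1.08, from 61.5 and 59.2 CPM to 34.1 and 22.7 CPM. The other called genes were *Klrd1* at -2.79, *Crtam* at -2.61, *Gzmk* at -1.75, *Nkg7* at -1.61, *Ccl5* at -1.38, *Cst7* at -1.02 and *Itgae*, an integrin also carried by Treg cells, at -0.92 and called in 9 of the 12 alternatives. Over the 12 alternatives *Klrd1* ran from -3.79 to -2.25 and *Crtam* from -3.38 to -2.08. *Klrk1*, at -1.64 with an edgeR adjusted p = 0.0904, did not pass. Among the members tied to the CD8 lineage, *Cd8b1* fell as well (-0.91), whereas no difference was detected for *Runx3* or for *Cd8a*, which had only 20 to 36 counts. Of 5 NK-cell markers, *Klra8* had 0 counts in every library, and the 5 together summed to 3.98 and 1.57 CPM in WT and 3.43 and 0.638 CPM in cKO. Without cKO 1, 11 of the 13 were called lower, and without WT 2, 7 were.

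Of 9 genes of helper cells, 8 were tested, 3 rose and 0 fell, beside 2.35% of all genes higher, with a median log2 fold change of 0.56. *Cd40lg*, the CD40 ligand through which helper cells license B cells, rose from 85.8 and 81.3 CPM to 132.1 and 117.8 CPM, a log2 fold change of 0.58 with an edgeR adjusted p = 0.0232. It lies on chromosome X, as does the myeloid gene *Cybb*. *Tnfrsf4*, the receptor OX40, rose by 0.75 (adjusted p = 0.0264) and *Bcl6*, the factor of follicular helper cells, by 0.61 (adjusted p = 0.0361, called in 9 of the 12 alternatives). *Il21* had the largest value, 1.26, without passing, at 1.34 to 5.10 CPM. *Izumo1r*, the most abundant of the list, had a log2 fold change of 0.31 and did not pass. *Foxp3* rose in these libraries as well, and the part of *Foxp3*-expressing cells in the values of this list was not tested. Without cKO 1, 3 of the 8 genes were called, and without WT 2 none was by edgeR, with 3 at an unadjusted p under 0.05, while DESeq2 on all libraries called 2.

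**Figure D5:**
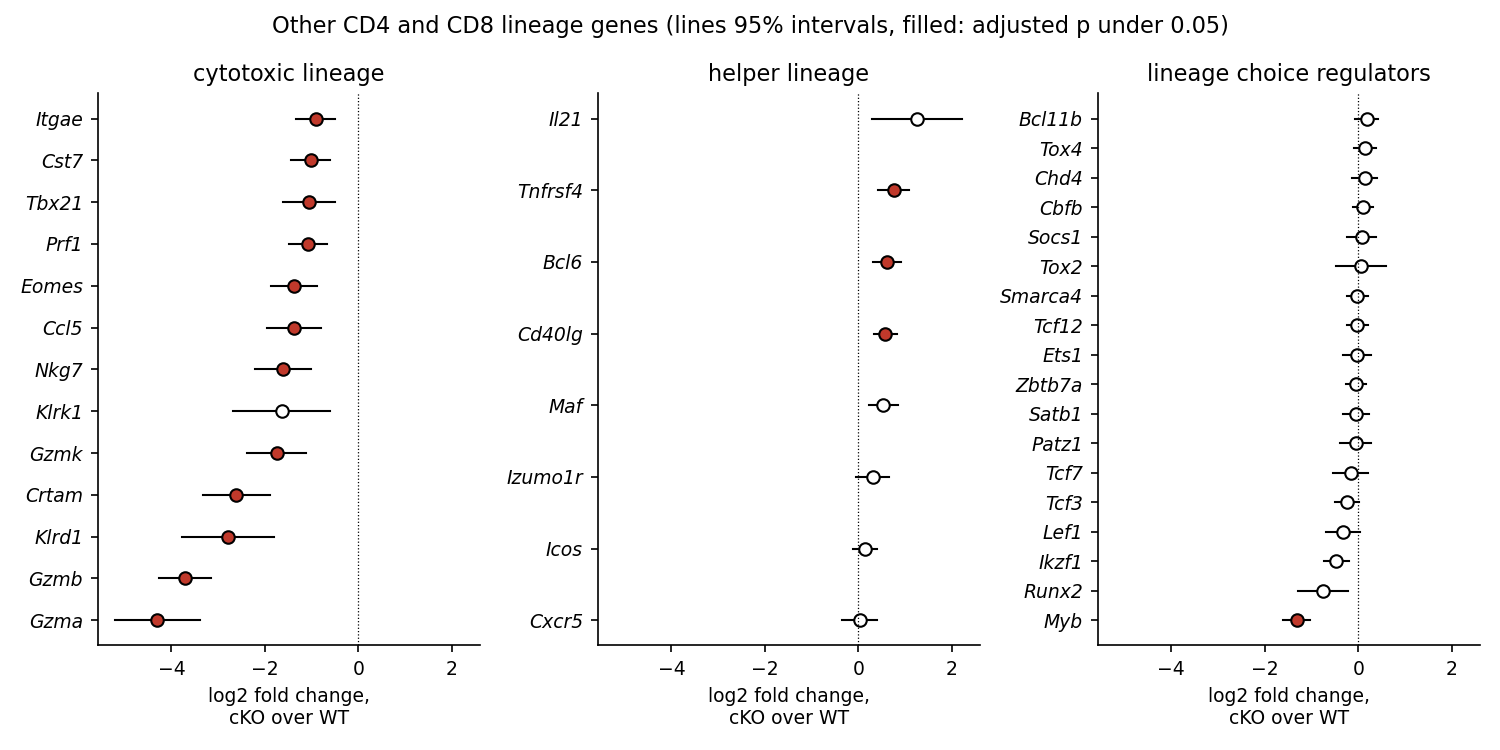
Log2 fold change of cKO over WT, with 95% intervals, for the tested genes of the cytotoxic, helper and lineage-choice lists, filled where the adjusted p was under 0.05. Of the cytotoxic genes 12 of 13 are filled and all 13 lie below 0, and 3 of the 8 helper genes are filled, each above 0.

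Of 7 genes that mark thymocyte stages, 5 were tested and 3 fell, beside 1.95% of all genes lower. *Ccr9*, a chemokine receptor of thymocytes and gut-homing T cells, fell from 36.7 and 43.9 CPM to 18.7 and 15.3 CPM, a log2 fold change of -1.23 with an edgeR adjusted p = 0.00626. *Themis*, a signalling protein of positive selection that mature T cells also express, fell by 0.53 on the log2 scale (adjusted p = 0.0345). *Dntt*, the terminal transferase that adds bases at receptor joints, was at 3.52 and 2.24 CPM in WT and 4.95 and 4.04 CPM in cKO (edgeR adjusted p = 0.441). *Ptcra*, of the pre-T-cell receptor, was at the floor, with 1 count in WT 2 and 0 in the other libraries. Without cKO 1, 3 of the 5 were called lower, and without WT 2, 1 was.

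Of 18 partners and regulators of lineage choice, all tested, 1 fell and 0 rose, beside 1.95% lower and 2.35% higher among all genes. Their median log2 fold change was -0.04. The 18 include *Satb1* itself, at -0.05 with an edgeR adjusted p = 0.877. *Myb*, a factor that supports CD4 lineage differentiation in the thymus, was at 98.4 and 105.3 CPM in WT and at 37.3 and 44.2 CPM in cKO, with a log2 fold change of -1.32 and an edgeR adjusted p = 0.00096, and it was called in all 12 alternatives. The others had log2 fold changes between -0.76 and 0.18. *Ikzf1*, which encodes the zinc finger protein Ikaros, was at -0.47 with an edgeR adjusted p = 0.0633, and it was called lower in 6 of the 12 alternatives, DESeq2 among them (adjusted p = 0.00487). *Cbfb*, the shared partner of the RUNX proteins, was at 0.10, *Runx2* at -0.76 with adjusted p = 0.119, and *Zbtb7a*, the relative of ThPOK, at -0.05. *Ets1*, the most abundant of the list at 2514 to 2707 CPM, was at -0.03. The number of these genes called lower was 5 without cKO 1 and 3 without cKO 2, fits in which 10.6% and 12.8% of all genes were called in either direction.

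The chromosomal surroundings of the members were described from the nearest 2 tested protein-coding genes on each side. Neighbours that are themselves members were left out of the count, which left 32 genes. Of these, 1 was called higher, 2 were called lower and 29 were not called, beside 4.3% called among all tested genes. Their median log2 fold change was 0.05. *Zbtb7b* rose without a called neighbour. *Dcst2*, 0.095 kb away, was at 0.38 with an edgeR adjusted p = 0.741, and *Flad1*, 6.23 kb away, at -0.27 with adjusted p = 0.349. *Cd8b1* fell between *Krcc1* at 0.09 and *Cd8a* at -0.07, and *Rmnd5a*, beyond *Cd8a*, was at 0.0038. Beside *Cd4*, *Lag3* was at 0.23 with adjusted p = 0.641. The called neighbours outside the members were *Cdca3* near *Cd4* (-1.38), *Chd7* at 1699 kb from *Tox* (-0.53) and *Usp6nl* at 3411 kb from *Gata3* (0.66).

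Among 9722 other genes with an average log2 CPM of at least 3, the patterns over the 4 libraries most like that of *Zbtb7b* were those of *Usp6nl*, *4833403J16Rik* and *Asb2*, at distances of 0.037, 0.040 and 0.042 on mean-centred log2 CPM. *Hmga1b*, *Ampd1* and *Wdr38* came closest to *Cd8b1*, at 0.097, 0.153 and 0.158. With 4 libraries this is a description of likeness alone.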

How the data were processed

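The deposited values are raw read counts per gene symbol from 4 splenic CD4+ T-cell libraries, 2 per genotype. The authors aligned reads to mm10 with HISAT2 2.1.0 and counted them with HTSeq, given as 0.11.1 in the submitters' processing notes. The annotation and strand setting are not given in the sources used here. HTSeq leaves out reads on more than 1 gene or place, and 59.4% to 64.5% of uniquely aligned reads were assigned to no feature. These summary lines stayed out of library sizes and tests.

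Genes were kept by filterByExpr, scaled by TMM and tested on genotype with the edgeR 4.0.16 quasi-likelihood test (legacy estimate, R 4.3.3), two-sided, Benjamini-Hochberg adjusted over the 12403 tested genes, at a threshold of 0.05. The study also used edgeR. DESeq2 was version 1.42.0. CPM are counts per 1e+06 on TMM-scaled totals of the genes that passed the filter. Intervals are at a level of 0.95. Those of single libraries and of ratios cover counting error only, and without molecular identifiers reads need not be separate molecules. The floor was 3 counts per library, 0.459 to 0.672 CPM. Positions, exon lengths and overlaps came from GENCODE M21 on GRCm38, the assembly called mm10. The procedure was tested on simulated counts.

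Libraries of a genotype were not duplicates, since their counts gave chi-square values of 2.83 (WT) and 6.68 (cKO) per degree of freedom. The study describes its replicates as biological. The labels do not tie a library to a mouse, so p-values measure the spread between these libraries. The members and lists were chosen with earlier results of these data known. Named genes were the 10 members, every called gene of each lineage list with its most abundant gene and the gene of largest change, every called neighbour, and for each called member the 3 genes of most similar pattern, from log2 CPM with 0.5 added. 1 called gene of the thymocyte-stage list is not reported here. Other genes of the lists and neighbours were named after their values were seen. Alternatives were DESeq2, RLE factors, total counts, no filter, a filter of 1 CPM in 2 libraries, thinning, leaving out each library, a replicate block, an adjusted p of 0.01 and, chosen after seeing the data, edgeR's current dispersion estimate and the list counts outside the unfiltered fit.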

Additional observations from a re-analysis of the deposited data

How the results depend on the processing

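*Zbtb7b* and *Cd8b1* kept their direction in all 12 alternatives and their call in 11 of them, the exception being the fit without WT 2. In the fits that leave out 1 library, where the lone library is assumed to vary like the other genotype, the log2 fold change ran from 0.56 to 0.78 for *Zbtb7b*, -1.05 to -0.76 for *Cd8b1*, 0.37 to 0.56 for *Gata3*, 0.21 to 0.58 for *Tox*, -0.11 to 0.01 (0.0081) for *Cd4*, -0.46 to 0.23 for *Cd8a*, -0.17 to 0.26 for *Runx3*, -0.11 to 0.18 for *Runx1* and -0.28 to 0.56 for *Rag1*. *Cd8a* was also at 0.034 after thinning. *Gata3* passed without the low-count filter (0.45), after thinning (0.48) and with the replicate block (0.46), and *Tox* passed without the filter (0.37) and with the block (0.38). The number of members called was 4 without the filter and with the block. It was 0 at an adjusted p of 0.01 in edgeR, where 4 had an unadjusted p under 0.05 and DESeq2 called 1, and it was 0 to 4 in the fits without 1 library. Over all genes 533 were called, 1367 without the filter, 153 at 0.01 and 174 to 1583 in the fits without 1 library. Those fits called 7 to 12 of the cytotoxic genes lower, 0 to 5 helper genes higher, 1 to 3 thymocyte-stage genes lower and 1 to 5 lineage-choice regulators lower. The last count was 2 in DESeq2 and with total counts, 4 without the filter and 2 with the block. The cause was not tested. Scaling moved the median of all genes by less than 0.1. Same-numbered libraries share only a number, and the correlation of their deviations was 0.064. The replicate block gave 1165 called genes. With the longest transcript as length, 13 of 20 levels per kb moved by more than the SD. Depth limits *Rag2*, *Rag1* and *Cd8a*, with at most 52 counts in a library.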

Other observations

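*Ighm*, the immunoglobulin mu heavy chain gene, was at 583 and 445 CPM in WT and 582 and 448 CPM in cKO, although *Ms4a1*, which encodes the B-cell antigen CD20, was at most 4.57 CPM in any library. Its log2 fold change was 0.0018 with an edgeR adjusted p = 0.998.

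*Usp6nl* was both the called neighbour on the far side of *Gata3* and the gene whose pattern over the libraries lay closest to that of *Zbtb7b*. It was at 34.6 and 28.9 CPM in WT and 49.5 and 51.7 CPM in cKO, with a log2 fold change of 0.66 and an edgeR adjusted p = 0.0360. *Cdca3*, a cell-cycle gene near *Cd4*, fell from 18.6 to 7.13 CPM on average, with adjusted p = 0.0304, and *Cks1b*, a cell-cycle gene near *Zbtb7b*, was at -0.92 with adjusted p = 0.170 and did not pass.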
